A study of Homo sapiens with 6 samples.

Results

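The expression of 7 genes of cholesterol synthesis and its control by SREBP2 was followed in Hs766T, an established human pancreatic tumour line that the sample titles spell HS7666T. The genes were chosen by name from the 58302 genes of the deposited table, and all 7 were found there. HMGCS1 stands for the mevalonate arm, FDFT1, SQLE, LSS and DHCR7 for the sterol arm, INSIG1 for the retention of SREBP2, and SREBF2 for SREBP2 itself. RNA-seq was made from 3 libraries of cells labelled as overexpressing DDX18, with the genotype ex-DDX18, and from 3 control libraries labelled plvx, with the genotype WT. DDX18 is an RNA helicase of the DEAD-box family that works in the nucleolus, and the series asks how its high expression bears on other molecules in these cells. The labels name no clone, promoter or vector map. The design text speaks of repeated sequencing and does not mention separate cultures. P-values therefore reflect the spread among these libraries alone, which may be technical. Per-library values below run in the order of replicates 1, 2 and 3. They are in CPM, counts scaled to a common library size with TMM factors. Gene coordinates are on GRCh38.

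Cholesterol is made from acetyl-CoA through mevalonate, farnesyl diphosphate, squalene and lanosterol, and the enzymes of this route are controlled together. SREBP2, the transcription factor encoded by SREBF2, is held in the endoplasmic reticulum by SCAP and INSIG proteins while sterols are plentiful. When sterols run low it is cleaved, freed and enters the nucleus, where it binds sterol response elements and raises transcription of these enzymes and of its own gene. In pancreatic cancer cells the route supplies membrane sterol and the isoprenoid anchors of small GTPases.

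Libraries held 15911875 to 16207995 counts. Across genes, log2 CPM correlated at 0.985 to 0.988 within groups and at 0.984 to 0.988 between groups (Pearson r). DDX18 itself measured 187, 197 and 177 CPM in the DDX18 libraries, against 89.4, 82.4 and 98.3 CPM in the plvx libraries (2.08-fold higher, 95% confidence interval 1.81 to 2.39, adjusted p = 0.00982, edgeR's quasi-likelihood test). Of the epithelial markers KRT7, KRT8 and KRT18 were high, with sums of all 7 listed markers of 3337 to 3858 CPM in the DDX18 libraries and 3628 to 3828 CPM in the plvx libraries. KRT19, a defining keratin of pancreatic ducts, had no count in 5 of the libraries and 0.25 CPM in DDX18 replicate 3. EPCAM was low, at 4.40 to 6.55 CPM in the DDX18 libraries and 5.96 to 7.93 CPM in the plvx libraries. CDH1, which encodes E-cadherin, was lower still, averaging 2.23 ± 0.257 CPM in DDX18 libraries and 2.06 ± 0.281 CPM in plvx libraries (SD, n = 3). MUC1 averaged 51.1 ± 5.29 CPM in DDX18 libraries and 57.5 ± 4.15 CPM in plvx libraries. The sums of this list thus rested mainly on KRT7, KRT8 and KRT18 and say little about its other members. The 5 acinar markers were at 0 in every library, as were CYP7A1, CYP8B1, ALB and APOB, hepatocyte genes that use or carry sterols. The fibroblast list was not at 0, through PDGFRB and COL1A1 (sums of 168 to 173 CPM in the DDX18 libraries and 162 to 173 CPM in the plvx libraries). COL1A1 averaged 55.1 ± 3.17 CPM in DDX18 libraries and 66.8 ± 4.39 CPM in plvx libraries, and PDGFRB 105 ± 2.27 CPM in DDX18 libraries and 91.6 ± 4.15 CPM in plvx libraries (SD, n = 3). The groups of both genes did not overlap, with opposite signs, and neither was called (adjusted p = 0.814 and 0.841, edgeR). The groups of KRT18 did not overlap either, with DDX18 below (adjusted p = 0.86, edgeR). Groups that did not overlap were seen in 11.5% of all genes tested. The part of COL1A1 and PDGFRB in the results below was not tested. Sums of the endocrine, immune and endothelial lists stayed between 3.16 and 5.97 CPM in the DDX18 libraries and between 3.09 and 7.43 CPM in the plvx libraries.

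The stretches upstream of 4 of these genes are shown because SREBP2 is known to act in the promoters of its targets, and because they stand for the main patterns below. SREBF2 encodes the factor, HMGCS1 and DHCR7 varied most over the libraries, and INSIG1 varied least. Each line is the 250 bases before a transcription start in RefSeq (GRCh38.p14), read 5′ to 3′ on the gene's own strand. HMGCS1 and DHCR7 have 2 starts each in the table, and the one listed first is printed. They lie at chr22:41832855-41833104 (plus strand), chr5:43313413-43313662 (minus), chr7:155297628-155297877 (plus) and chr11:71448394-71448643 (minus), in the order printed. Capitals mark matches, on either strand, to the sterol response element letters TCACNCCAC, the CCAAT box CCAAT and the GC box GGGCGG.
SREBF2: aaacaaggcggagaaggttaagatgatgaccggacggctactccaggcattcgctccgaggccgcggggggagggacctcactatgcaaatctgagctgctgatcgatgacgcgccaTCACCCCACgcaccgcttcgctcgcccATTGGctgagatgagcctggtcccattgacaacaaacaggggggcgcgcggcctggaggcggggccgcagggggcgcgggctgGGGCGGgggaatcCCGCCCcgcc
HMGCS1: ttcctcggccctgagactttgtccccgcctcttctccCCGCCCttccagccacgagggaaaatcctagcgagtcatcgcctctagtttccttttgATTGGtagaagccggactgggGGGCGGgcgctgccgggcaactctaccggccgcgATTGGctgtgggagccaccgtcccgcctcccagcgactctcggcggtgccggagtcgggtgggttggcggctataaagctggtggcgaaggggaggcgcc
INSIG1: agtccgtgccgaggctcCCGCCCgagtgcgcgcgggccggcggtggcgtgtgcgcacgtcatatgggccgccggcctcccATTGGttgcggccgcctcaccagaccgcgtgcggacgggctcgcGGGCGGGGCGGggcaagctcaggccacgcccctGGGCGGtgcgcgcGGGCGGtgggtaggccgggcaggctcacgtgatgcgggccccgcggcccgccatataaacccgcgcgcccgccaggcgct
DHCR7: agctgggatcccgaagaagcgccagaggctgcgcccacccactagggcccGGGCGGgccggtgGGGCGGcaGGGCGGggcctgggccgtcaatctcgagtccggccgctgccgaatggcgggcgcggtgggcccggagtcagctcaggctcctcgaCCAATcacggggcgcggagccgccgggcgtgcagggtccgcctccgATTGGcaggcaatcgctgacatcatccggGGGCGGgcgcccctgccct

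The response element letters TCACNCCAC were found in the SREBF2 stretch, starting 133 bases before the start, with a CCAAT box on the other strand starting 106 bases before it. The promoter table matched 5 of the 7 genes, HMGCS1, LSS, DHCR7, INSIG1 and SREBF2, with 7 starts in all, and FDFT1 and SQLE were not matched. Of the 7 starts, 1 had the response element letters, 5 a CCAAT box and 6 a GC box. Over all 35116 starts in the table these shares were 0.883%, 32.0% and 42.6%. The unprinted start of DHCR7 had no match to any of the 3 motifs, and that of HMGCS1 had GC boxes alone. GC box matches can overlap each other, as in the INSIG1 stretch. Such matches are descriptions of letters, not of bound sites, and a stretch without a match says only that these exact letters are not in this window.

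No gene of the 7 passed the threshold of an adjusted p of 0.05 over the 15144 genes tested, all 7 having passed the filter on low counts. Over all genes 8 did, or 0.0528%. At an unadjusted p under 0.05 there was 1 of the 7, DHCR7, where the share over all genes was 5.69%. Of the log2 fold changes 6 were negative and 1 positive, with a median of -0.03, against -0.00078 over all genes tested. DESeq2, which called 0.264% of all genes, and limma-voom called 0 of the 7 as well. In 6 of the 7 genes the groups overlapped, and in DHCR7 all DDX18 values lay below the plvx values. Over all genes 5.71% had groups apart with DDX18 below, and 5.83% with DDX18 above. P-values above the threshold do not show that the groups had the same expression, and the intervals below give the sizes of difference left possible. In bulk RNA, fewer cells expressing a gene and less RNA per cell cannot be told apart.

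SREBF2 had the highest FPKM of the 7, a level per gene length, and varied little across the libraries. The gene (ENSG00000198911) spans 41833079 to 41907308 on chromosome 22. It measured 351, 346 and 359 CPM in the DDX18 libraries, against 366, 348 and 338 CPM in the plvx libraries. The groups overlapped, with the highest and the lowest value both in plvx libraries. The fold of DDX18 over plvx was 1.00 with a 95% confidence interval of 0.910 to 1.11 (adjusted p = 0.996, edgeR). Its antisense gene SREBF2-AS1 shares 280 exon bases with it and held a mean of 72.8 counts over all libraries, where SREBF2 held 5624. Genes that overlap exons of HMGCS1, FDFT1 and LSS on the opposite strand held means of 0.167 to 10.7 counts.

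INSIG1, the endoplasmic reticulum protein that retains SCAP and SREBP2 when sterol is present, is itself a target of SREBP2 and is often read as a gauge of its activity. The gene (ENSG00000186480, chromosome 7, 155297776 to 155310235) measured 87.0, 82.0 and 84.0 CPM in the DDX18 libraries, against 87.3, 84.0 and 84.7 CPM in the plvx libraries. All 6 values lay within 1.07-fold of each other. Its coefficient of variation over the 6 libraries was 2.38%, and 0.713% of the genes tested had one as low or lower. For SREBF2 the corresponding values were 2.87% and 1.28%. The variation of a gene also depends on its level, and INSIG1 lay at the 82.1 percentile of mean CPM and SREBF2 at the 97.0 percentile. INSIG1 held 1314 to 1403 counts per library, so counting error enters its 2.38%, and how far was not tested. As the lowest value among the 7 genes, it does not show that INSIG1 is held unusually steady. The fold of INSIG1 was 0.988 (0.886 to 1.10, adjusted p = 0.99, edgeR).

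HMGCS1 makes HMG-CoA, the substrate of the mevalonate step, in the cytosol. The gene (ENSG00000112972, chromosome 5, 43289395 to 43313512) measured 82.4, 97.5 and 71.2 CPM in the DDX18 libraries, against 79.3, 95.6 and 102 CPM in the plvx libraries. High and low libraries occurred in both groups, and the highest was 1.44 times the lowest. The log2 fold change was -0.14 ± 0.14 (SE, adjusted p = 0.933, edgeR). As a fold it was 0.906, with an interval of 0.725 to 1.13. The log2 fold change was -0.27 without DDX18 replicate 2, -0.24 without plvx replicate 1, -0.07 without plvx replicate 3 and -0.04 without DDX18 replicate 3, so its size rested on single libraries.

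In the sterol arm FDFT1, SQLE and LSS catalyse the steps to squalene, to its epoxide and to lanosterol, and their groups overlapped. FDFT1, squalene synthase (ENSG00000079459, chromosome 8, 11795573 to 11839309), measured 159, 155 and 159 CPM in the DDX18 libraries, against 170.0, 151 and 164 CPM in the plvx libraries. Its fold was 0.976 (0.874 to 1.09, adjusted p = 0.971, edgeR). SQLE, squalene epoxidase (ENSG00000104549, chromosome 8, 124998497 to 125022283), had the lowest FPKM of the 7. It measured 50.8, 43.9 and 40.7 CPM in the DDX18 libraries, against 43.2, 45.8 and 48.3 CPM in the plvx libraries. The highest and the lowest value were both in DDX18 libraries, and the fold was 0.985 (0.833 to 1.17, adjusted p = 0.992, edgeR). LSS, lanosterol synthase (ENSG00000160285, chromosome 21, 46188141 to 46228824), measured 181, 192 and 190.3 CPM in the DDX18 libraries, against 213, 196 and 174 CPM in the plvx libraries. Its highest and lowest values were both in plvx libraries, and the fold was 0.966 (0.843 to 1.11, adjusted p = 0.964, edgeR).

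DHCR7 stood furthest from the other members. It encodes 7-dehydrocholesterol reductase, the enzyme that turns 7-dehydrocholesterol, which is also the precursor of vitamin D, into cholesterol. The gene (ENSG00000172893, chromosome 11, 71428193 to 71452868) measured 123, 117 and 115 CPM in the DDX18 libraries, against 177, 159.7 and 124 CPM in the plvx libraries. The DDX18 values lay close together and below all plvx values, but plvx replicate 3 was within 1 CPM of the highest DDX18 library. The means were 118 ± 4.02 CPM in DDX18 libraries and 154 ± 27.2 CPM in plvx libraries (SD, n = 3). The log2 fold change was -0.37 ± 0.13 (SE, n = 3), a fold of 0.771 with an interval of 0.630 to 0.944, with an unadjusted p of 0.0184 and an adjusted p of 0.841 (edgeR). DHCR7 ranked 326 by p among all genes tested, and 11.5% of them had groups that did not overlap.

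The difference of DHCR7 depended on which control library was left out. The log2 fold change was -0.51 without plvx replicate 3 (adjusted p = 0.206, edgeR) and -0.26 without plvx replicate 1 (adjusted p = 0.655). The unadjusted p of DHCR7 was above 0.05 without DDX18 replicate 3, plvx replicate 1 or plvx replicate 2, and 0 of the 7 genes then had one below it. Over all 17 alternatives DHCR7 stayed negative and its adjusted p lay between 0.206 and 0.999.

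**Figure D1:**
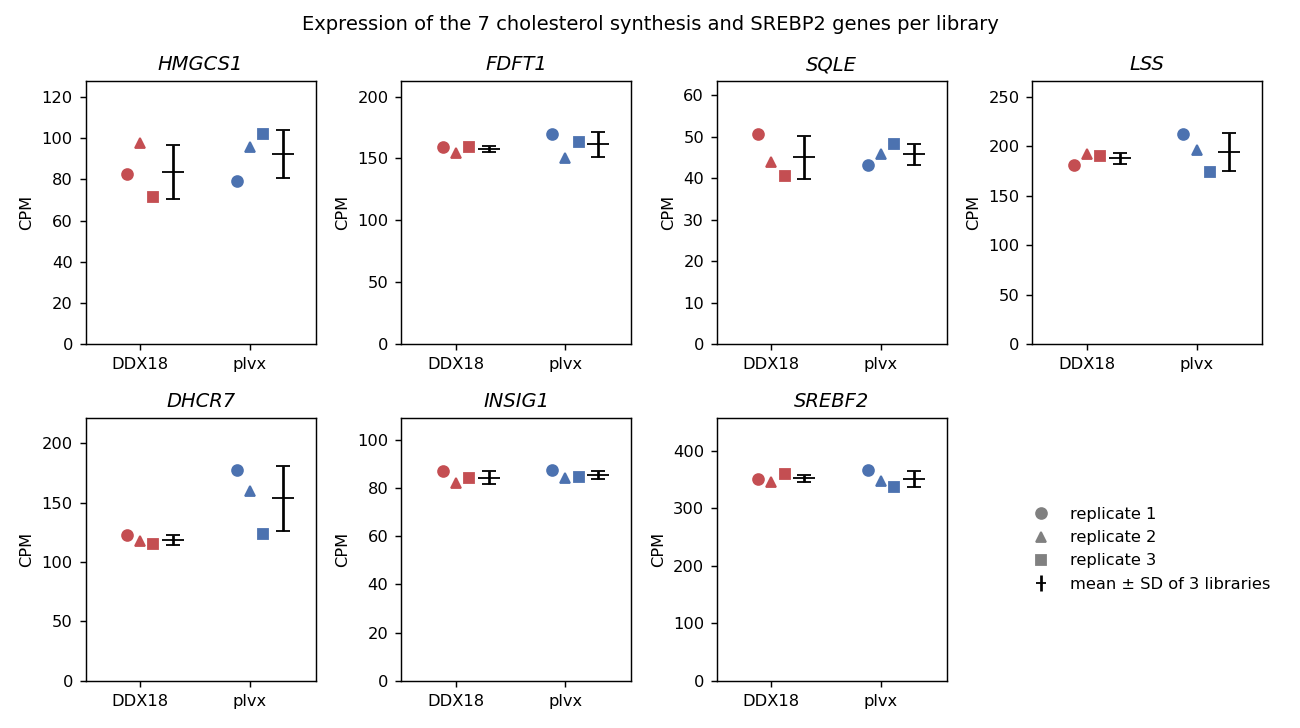
Expression of the 7 genes in CPM (y axes, from 0) in the 3 DDX18 and 3 plvx libraries, with symbols for the replicate numbers and bars for the mean ± SD of 3 libraries. DHCR7 has DDX18 values of 115 to 123 CPM below plvx values of 124 to 177 CPM, while the groups of the other 6 genes overlap.

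Levels were compared between genes only per length, on the authors' FPKM scale, as means over all 6 libraries. The order was SREBF2 (26.6 FPKM), DHCR7 (17.95), HMGCS1 (12.7), LSS (11.8), INSIG1 (10.5), FDFT1 (9.44) and SQLE (7.89). Values over the libraries overlapped between HMGCS1 and LSS, and between LSS and INSIG1, and the other neighbours did not overlap. This order depends on the gene length used. The FPKM of FDFT1 implies a length of 16853 bases, where its merged exons in GENCODE 29 span 5202. By CPM per kilobase of merged exons SREBF2 (46.4) and DHCR7 (32.6) again led and SQLE (10.5) was last, but FDFT1 (30.6) came before LSS (26.3) and INSIG1 (23.2), and HMGCS1 (18.7) after them. By CPM per kilobase of the principal transcript SREBF2 had no value, so its place on this measure is not known. Among the other members FDFT1 came first (59.8), before DHCR7 (50.8), LSS (38.6), INSIG1 (28.1), HMGCS1 (25.1) and SQLE (15.3).

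The remaining 22 genes of the same system, taken from lists of the mevalonate arm, the sterol arm and the SREBP control proteins, were all tested. None passed the threshold, 10 had a positive and 12 a negative log2 fold change, and the median was -0.04. Together with the 7 genes, 28 of 29 had a 95% confidence interval that included 0, the exception being DHCR7. An interval that excludes 0 amounts to an unadjusted p under 0.05, which 5.69% of all genes tested had (edgeR). The sum of the 29 genes was 3224 to 3293 CPM in the DDX18 libraries and 3271 to 3457 CPM in the plvx libraries.

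Within the mevalonate arm 2 of 9 genes had a positive and 7 a negative log2 fold change, with a median of -0.10. IDI1, the isomerase of isopentenyl diphosphate, was the one gene of this arm whose groups did not overlap, at 42.7, 43.8 and 39.9 CPM in the DDX18 libraries, against 45.8, 44.8 and 55.4 CPM in the plvx libraries (log2 fold change -0.21 ± 0.10 SE, adjusted p = 0.86, edgeR). Over all genes tested, 11.5% had groups that did not overlap. FDPS, farnesyl diphosphate synthase, averaged 202 ± 9.08 CPM in DDX18 libraries and 198 ± 6.90 CPM in plvx libraries. ACAT2, MVK, PMVK, MVD and GGPS1 had log2 fold changes between -0.11 and 0.07.

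In the sterol arm 4 of 13 genes had a positive and 9 a negative log2 fold change, with a median of -0.03. EBP, the isomerase that acts before DHCR7, was at 93.6, 103 and 97.1 CPM in the DDX18 libraries, against 136, 109 and 98.0 CPM in the plvx libraries. Its groups overlapped (log2 fold change -0.22 ± 0.12 SE, adjusted p = 0.861, edgeR). The highest value of EBP was in plvx replicate 1, as for DHCR7 but also for FDFT1, LSS, INSIG1 and SREBF2. MSMO1, a methyl sterol oxidase, had -0.19 ± 0.13 on the same scale. CYP51A1, LBR, NSDHL, HSD17B7 and SC5D had log2 fold changes between -0.06 and 0.05, and TM7SF2, at about 3 CPM, had -0.12.

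Among the genes for SREBP proteins and for those that hold and cleave them none was called. Of these 7 genes 5 had a positive and 2 a negative log2 fold change, with a median of 0.02. SCAP, the sterol sensor that escorts SREBP2, averaged 177 ± 1.46 CPM with DDX18 and 175 ± 4.49 CPM in the controls (fold 1.01, 0.923 to 1.12). SREBF1, the sister factor mainly of fatty acid synthesis, averaged 339 ± 25.1 CPM in DDX18 libraries and 331 ± 21.2 CPM in plvx libraries. INSIG2, the second retention protein, was low, and its 6.56 ± 2.22 CPM with DDX18 and 5.67 ± 0.79 CPM in the controls left an interval of 0.765 to 1.75 for its fold. The proteases MBTPS1 and MBTPS2 had log2 fold changes of 0.08 ± 0.15 and -0.07 ± 0.12 (SE).

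**Figure D2:**
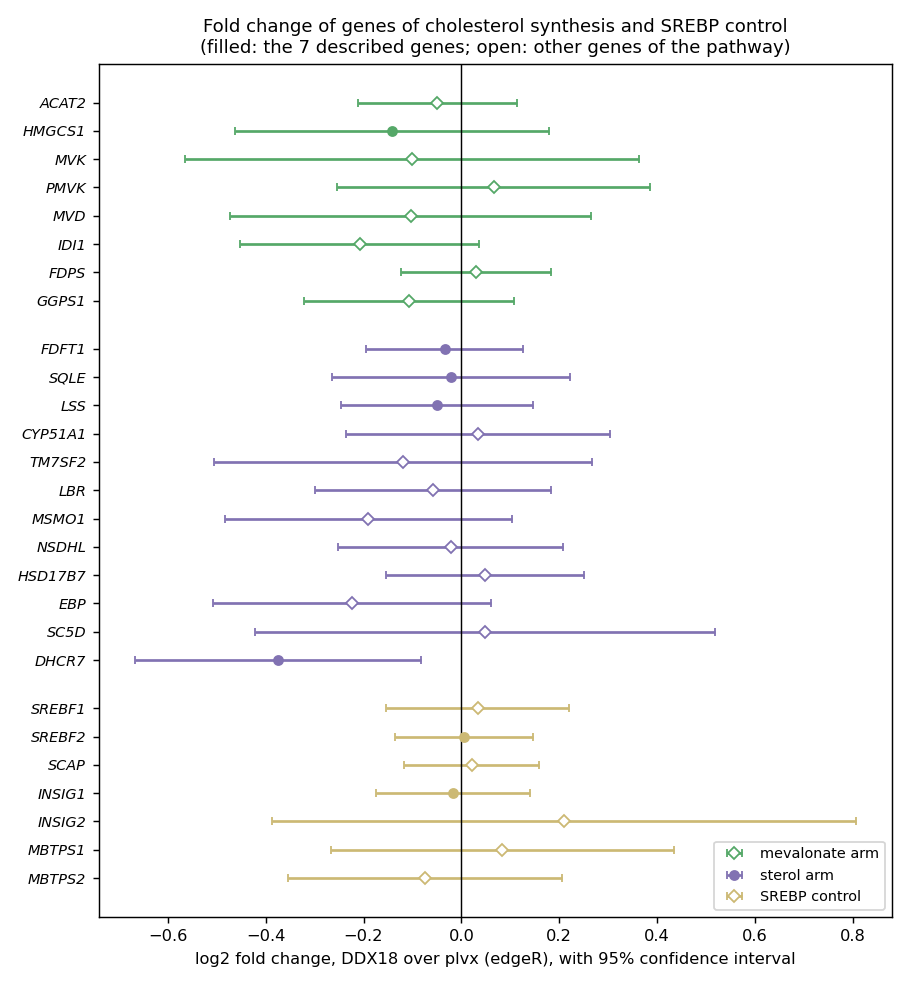
Log2 fold change of DDX18 over plvx (x axis) for 27 genes of the mevalonate arm, the sterol arm and SREBP control (rows), as points with 95% confidence intervals from edgeR, filled for the 7 described genes. DHCR7 at -0.37 is the one gene whose interval lies on one side of 0. Such an interval amounts to an unadjusted p under 0.05, which 5.69% of all genes tested had (edgeR).

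Genes of sterol uptake and traffic were not called either, with 4 positive and 6 negative among the 10 tested and a median log2 fold change of -0.02. STARD4, a sterol carrier, had a log2 fold change of -0.20 ± 0.13 (SE), and NPC1, which exports cholesterol from lysosomes, had -0.09 ± 0.08.

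The 7 genes did not share 1 profile over the libraries. Pairwise Pearson correlations of their log2 CPM over the 6 libraries ran from -0.85 (HMGCS1 with SREBF2) to 0.79 (LSS with SREBF2), with 12 of 21 pairs positive. Libraries of both groups enter these values, which are given as a description.

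Several of the genes also differed between control libraries. In plvx replicate 3 HMGCS1, CYP51A1, LBR, IDI1 and MSMO1 were higher than in plvx replicate 1 by 0.25 to 0.39 on the log2 scale. DHCR7, LSS, EBP, MVD, PMVK, SC5D and MVK were lower in plvx replicate 3, with log2 ratios of -0.78 to -0.29. In all, 13 of the 29 genes differed by more than 0.25 log2 between these 2 controls, where 34.3% of all protein-coding genes tested with at least 100 counts in both did. This pair of libraries was chosen for comparison after the values were seen.

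**Figure D3:**
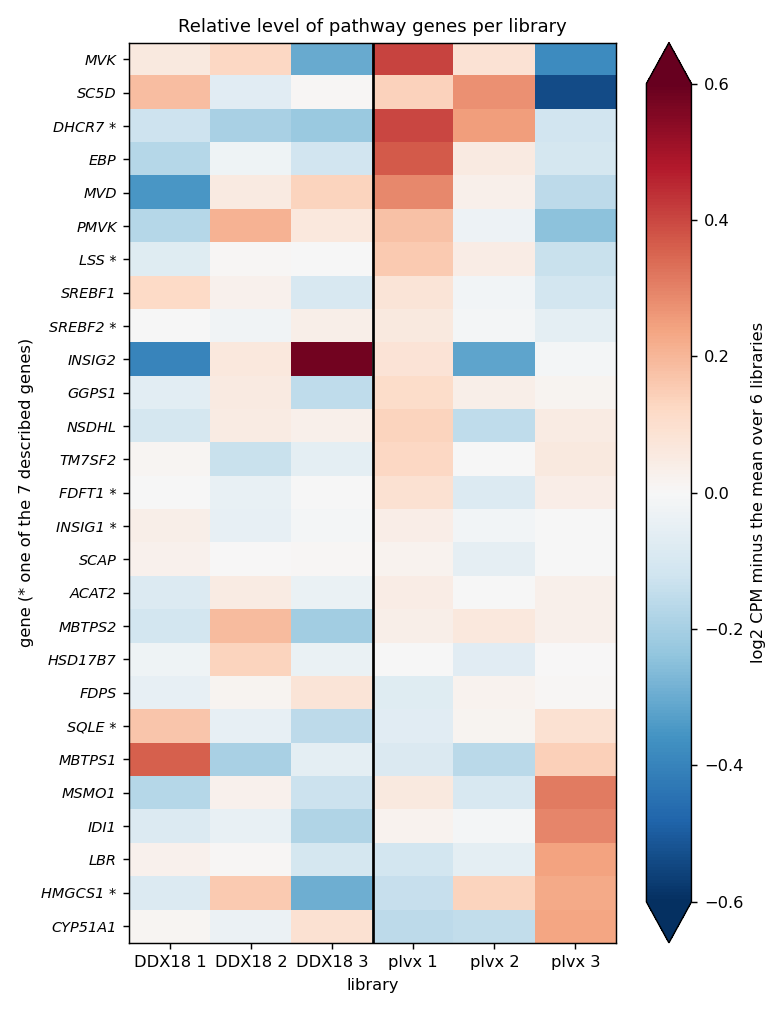
Log2 CPM minus the mean over the 6 libraries (colour) for 27 genes (rows, ordered by the ratio of plvx 3 to plvx 1) in the DDX18 and plvx libraries (columns). The plvx 1 and plvx 3 columns differ most at the top (MVK, SC5D, DHCR7) and at the bottom (HMGCS1, CYP51A1), and in opposite directions.

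The base composition of the transcripts moved with this difference between controls. The 10 genes that were higher in plvx replicate 3 had a median GC share of 41.4% in their longest protein-coding transcript, and the 19 that were lower had 55.1%. HMGCS1 had 40.2%, INSIG1 46.0%, SQLE 46.5%, FDFT1 48.6%, SREBF2 57.9%, and LSS and DHCR7 58.3% each. The Pearson correlation of GC share and log2 ratio was -0.51 over the 29 genes and -0.48 over 9630 protein-coding genes, all taken from the same 2 libraries. SC5D went against it, with a GC share of 38.6% and a log2 ratio of -0.67.

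With a correction for GC share in each library, the log2 fold change of DDX18 over plvx was -0.38 for DHCR7 and -0.08 for HMGCS1. The corrected values of DHCR7 were 124, 117 and 112 CPM in the DDX18 libraries, against 169, 160.2 and 132 CPM in the plvx libraries. On these values the groups of DHCR7 did not overlap, and its adjusted p was 0.68 (edgeR). How many of all genes had groups apart on corrected values was not counted. The part of GC share in the difference of DHCR7 was not tested. For HMGCS1 the corrected values were 83.5, 96.4 and 75.9 CPM in the DDX18 libraries, against 82.9, 93.6 and 93.4 CPM in the plvx libraries. The sign of SREBF2 turned to -0.0099.

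**Figure D4:**
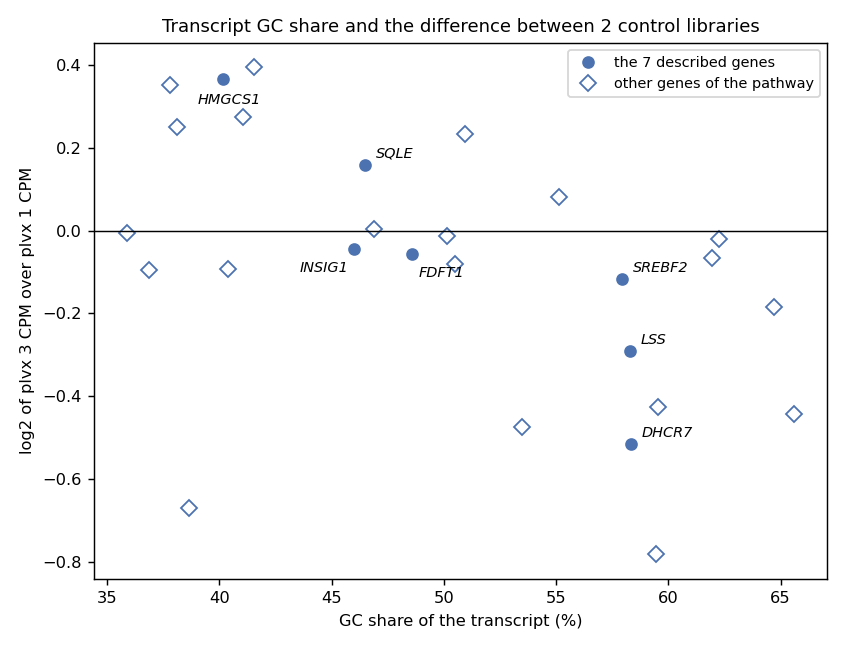
GC share of the longest protein-coding transcript in percent (x axis) and log2 ratio of plvx 3 to plvx 1 CPM (y axis) for 27 genes of the system, with the 7 described genes filled and named. HMGCS1, at 40.2% GC, is higher in plvx 3, and DHCR7 and LSS, at 58.3%, are lower.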

How the data were processed

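RNA-seq of 6 Hs766T libraries was analysed from 1 table of 58302 genes. The authors deposited raw counts for each gene and, per the file headers, FPKM values. For the aligner, the counter and strandedness, details were not given in the sources used here, so reads of overlapping antisense genes may be included. Mouse builds (GRCm38, mm10) appear in the submitters' processing notes, while the table has human Ensembl identifiers. The coordinates of the 7 genes equal those of GENCODE 29 on GRCh38.

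Genes kept by filterByExpr (15144) were scaled by TMM and tested with edgeR 4.0.16 in R 4.3.3 (quasi-likelihood F-test, DDX18 over plvx, no covariate). Benjamini-Hochberg adjustment covered all genes tested, with a threshold of 0.05. The standard error is the log2 fold change divided by the square root of F. The edgeR, DESeq2 1.42.0 and limma-voom (limma 3.58.1) steps were tested on simulated data, but the limma fits of FPKM and the GC correction were not. The common coefficient of variation over all genes tested was 15.9%. It comes from edgeR's dispersion, the spread within groups beyond counting error. The 7 genes had 647 to 5716 counts per library. Their coefficient of variation of CPM over the 6 libraries was 2.38% (INSIG1) to 19.1% (DHCR7). That measure includes counting error and any difference between groups, so it is not comparable with the common one. With 3 libraries a group both counting error and the spread among libraries limit the precision.

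The members and lists were chosen with earlier results of these data known. The text names the 7 genes, DDX18, the other genes of the mevalonate, sterol and SREBP control lists, and the 7 epithelial markers. Also named are up to 3 genes with the smallest p in each other list, some genes without counts, and the 5 genes most alike in profile. Some genes of these lists are not reported here by name or drawn in the figures, but they enter the counts, medians and sums. Lists are described by counts and medians without a test. The GC correction, chosen after seeing the data, used a lowess curve (span 0.3) of log2 CPM, less its mean over libraries, on transcript GC share as an offset, with a GC share for 81.8% of the genes tested. Alternatives are given at the end.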

Additional observations from a re-analysis of the deposited data

How the results depend on the processing

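In all 17 alternatives 0 of the 7 genes were called, and DHCR7 and HMGCS1 stayed negative. These were other scalings, no filter, at least 5 CPM in 3 libraries, DESeq2, limma-voom, limma on FPKM values with a pseudocount of 1 or 0.1 before taking log2, the replicate block, the GC correction and leaving out each library. Over all genes 8 were called with edgeR, against 4 without a filter, 40 with DESeq2, 5 with the GC correction and 3 to 14 with a library left out (5 without DDX18 replicate 2 or 3, 14 without plvx replicate 1, 3 without plvx replicate 2). With the replicate number as a block 1 gene was called. Deviations of same-numbered libraries correlated at -0.07, 0.09 and -0.13, so the numbers were not taken as pairs. With a library left out, log2 fold changes near 0 changed sign, over ranges of -0.082 to 0.0049 (FDFT1), -0.12 to 0.048 (SQLE), -0.13 to 0.020 (LSS), -0.046 to 0.0035 (INSIG1) and -0.026 to 0.037 (SREBF2). With the GC correction SREBF2 was at -0.0099. Leaving out a library moved the list medians to -0.15 to -0.028 (mevalonate arm), -0.082 to -0.034 (sterol arm), -0.025 to 0.037 (SREBP control), -0.34 to -0.023 (LXR and efflux), -0.055 to -0.0014 (sterol uptake and traffic) and -0.041 to 0.025 (fatty acid synthesis). On log2(FPKM + 1) the mevalonate median was -0.055. The cause was not tested.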

Other observations

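Genes around the sterol route were described in the same way. Of the 5 tested genes of the LXR and sterol efflux list, 2 had a positive and 3 a negative log2 fold change. By edgeR 0 were called. ABCG1, a cholesterol exporter, was low, at 6.51, 5.43 and 7.23 CPM in the DDX18 libraries, against 7.73, 7.25 and 9.42 CPM in the plvx libraries. The groups did not overlap, narrowly (adjusted p = 0.86, edgeR), as was the case for 11.5% of all genes tested. NR1H3, which encodes LXR-alpha, averaged 33.2 ± 3.88 CPM in DDX18 libraries and 39.6 ± 4.56 CPM in plvx libraries (SD, n = 3). NR1H2, which encodes LXR-beta, averaged 53.8 ± 3.09 CPM in DDX18 libraries and 57.5 ± 5.03 CPM in plvx libraries. CH25H, a cholesterol hydroxylase, had no count in any library.

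Of 10 genes of fatty acid synthesis 0 were called by edgeR, and 1, FADS2, had an unadjusted p under 0.05, where the share over all genes was 5.69%. FADS2, a desaturase, measured 39.9, 41.9 and 39.4 CPM in the DDX18 libraries, against 49.0, 45.4 and 45.7 CPM in the plvx libraries (log2 fold change -0.21 ± 0.08 SE, adjusted p = 0.849, edgeR). SCD, the delta-9 desaturase, averaged 784 ± 46.1 CPM in DDX18 libraries and 834 ± 19.4 CPM in plvx libraries. The groups of FADS2 and SCD, 2 of these 10 genes, did not overlap, with DDX18 below. Over all genes tested that share was 5.71%. ELOVL5, an elongase, averaged 141 ± 0.453 CPM in DDX18 libraries and 134 ± 6.68 CPM in plvx libraries.

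The genes most like the mean profile of the 7 genes over the 6 libraries were SLC1A4, UCK1, SIRT2, DIAPH1 and RNPEPL1, with Pearson r from 0.96 to 0.99 on log2 CPM. Of 9453 genes with a mean of at least 10 CPM, 53 had an r above 0.9. The mean profile averages genes whose pairwise correlations ran from -0.85 to 0.79, so it stands for no single member. How many genes would reach such an r over 6 libraries without any link was not tested. The names are given as a description. SLC1A4 measured 74.5, 70.6 and 71.4 CPM in the DDX18 libraries, against 78.6, 74.3 and 72.9 CPM in the plvx libraries, and its groups overlapped.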
